A study of Mus musculus with 10 samples.

Results

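The genes described here are Mid1, Ccdc141, Crtac1, Copz2, Ebf1 and Klk1b22, 6 of the 19938 genes measured on mouse gene arrays of embryonic stem (ES) cells, neural stem cells made from them in culture, and neural stem cells from embryonic brain. They were selected on their large log2 difference between the primary spheres that ES cells form and the ES cells themselves, and each was read by its probe set with the highest mean. Mid1 had the second lowest difference of all genes in that contrast, and the other 5 ranked between 5 and 11 among the highest. In that contrast 6.56% of all genes were called higher and 6.79% lower, from which nothing can be read about genes it selected, so it is given as a description with no test.

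There were 5 groups of 2 biological replicates, with 1 array each. The mESC group was the R1 line, made from 129/Sv mice, grown on inactivated mouse embryonic fibroblasts with 15% serum and 1000 U/ml Lif, the cytokine that keeps mouse ES cells undifferentiated. The p-NSC_L group held primary spheres, called primitive neural stem cells, that R1 cells formed without serum in N2 medium with 1000 U/ml Lif. Those spheres, dissociated and re-plated with 1000 U/ml Lif, 10 ng/ml FGF and 2 µg/ml heparin, gave the p-NSC_LF group. The d-NSC group, called definitive neural stem cells, came from primitive ones passaged into N2 and B27 with 20 ng/ml EGF, 20 ng/ml FGF and 2 µg/ml heparin, with no Lif listed. The CNS-NSC group came from the frontal lobes of wild type E11.5 embryos of the ICR strain and grew in N2 with 20 ng/ml EGF, 20 ng/ml FGF and 2 µg/ml heparin. By their labels the 4 groups of R1 and its derivatives share 1 cell line. Hprt read low on the mESC arrays alone, as given with Ebf1, and the identity of that culture was not tested. Medium and passage change together between groups, and CNS-NSC differ from all others in strain as well.

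All levels are log2 intensities, on which 1 unit is a 2-fold change, and the number of arrays limits their precision. Array medians lay between 7.66 and 7.76 and lower quartiles between 6.39 and 6.49. The size of a difference is uncertain where a group lies below that quartile, as Klk1b22 does in mESC and CNS-NSC. Replicates differed by at least 2-fold at 167 genes in p-NSC_L and 277 in CNS-NSC, against 1 to 30 genes in the other 3 groups. The mean of 10 pluripotency markers was 12.4 to 12.6 on the mESC, p-NSC_L and p-NSC_LF arrays, 10.3 and 10.2 in d-NSC, and 7.50 and 7.57 in CNS-NSC. The mean of 10 neural stem cell markers was 8.62 to 8.76 on the first 6 of these arrays, 11.1 on both d-NSC arrays, and 11.3 and 11.1 in CNS-NSC. As a mean, neural markers in the 2 primitive groups lay near those of mESC, but 3 of the 10 were higher and 1 lower in p-NSC_L than in mESC. Of all genes 6.56% were higher and 6.79% lower there. On 13 feeder fibroblast markers the arrays averaged 7.27 and 7.35 in mESC, 7.78 and 7.92 in p-NSC_L, 7.42 and 7.39 in p-NSC_LF, 8.33 and 8.27 in d-NSC, and 7.84 and 7.68 in CNS-NSC. In bulk RNA, fewer cells of a type and less RNA per cell cannot be told apart.

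The 6 genes act in unrelated processes. MID1 is a ubiquitin ligase of the tripartite motif family that sits on microtubules and, with the adaptor alpha4, marks the catalytic subunit of protein phosphatase 2A for degradation. In human it is mutated in Opitz syndrome, a disorder of midline structures. CCDC141, also called CAMDI, binds DISC1 and is needed for radial migration of mouse cortical neurons. CRTAC1, known in mouse brain as LOTUS, is an extracellular protein that blocks the Nogo receptor. COPZ2 is the less common form of the zeta subunit of the COPI coat, which carries vesicles from Golgi to endoplasmic reticulum. EBF1 is a transcription factor best known for B cell commitment, with further roles in stroma and in developing striatal and olfactory neurons. KLK1B22 belongs to the tissue kallikreins, serine proteases abundant in mouse salivary gland, and is also called epidermal growth factor binding protein A.

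Mid1, on chromosome X, was the only one of the 6 that was low in primitive cultures. It read 11.22 and 11.41 in mESC, 7.57 and 7.81 in p-NSC_L, 7.91 and 8.07 in p-NSC_LF, 10.56 and 10.47 in d-NSC, and 10.23 and 10.76 in CNS-NSC. All 4 primitive arrays lay at least 2.16 below all 6 others. Mid1 was lower in p-NSC_L than in mESC, at -3.62 ± 0.17 (SE of the fit, n = 2 arrays per group), or 12.3-fold, and p-NSC_LF stood at -3.32 from mESC. The highest level was that of mESC. Those of d-NSC and CNS-NSC overlapped and came next, and p-NSC_L had the lowest, 0.30 ± 0.17 below p-NSC_LF on the log2 scale.

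Ccdc141, on chromosome 2, took high values in primitive cultures and in the cultured CNS-NSC, and low ones in both mESC and d-NSC. It read 8.09 and 8.06 in mESC, 10.96 and 11.01 in p-NSC_L, 11.01 and 11.27 in p-NSC_LF, 8.11 and 8.15 in d-NSC, and 11.78 and 11.57 in CNS-NSC. The 2 low groups lay within 0.09 of each other and the 6 high arrays at least 2.81 above them. The 2 primitive groups overlapped in level, and CNS-NSC lay above both. Relative to mESC the gene stood at 2.91 ± 0.12 in p-NSC_L, at 3.07 in p-NSC_LF and at 0.06 in d-NSC, and CNS-NSC had the highest mean of the 5 groups.

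The array carries 5 probe sets for Ccdc141, which share the gene and its RNA but not their probes. All 5 showed the same shape over the groups. For p-NSC_L minus mESC their differences lay between 2.24 and 2.91, for d-NSC minus p-NSC_LF between -3.01 and -1.95, and for d-NSC minus mESC between -0.08 and 0.36. The probe set used had the largest difference in the first of these, 2.91 against 2.59 for the mean of all 5.

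**Figure D1:**
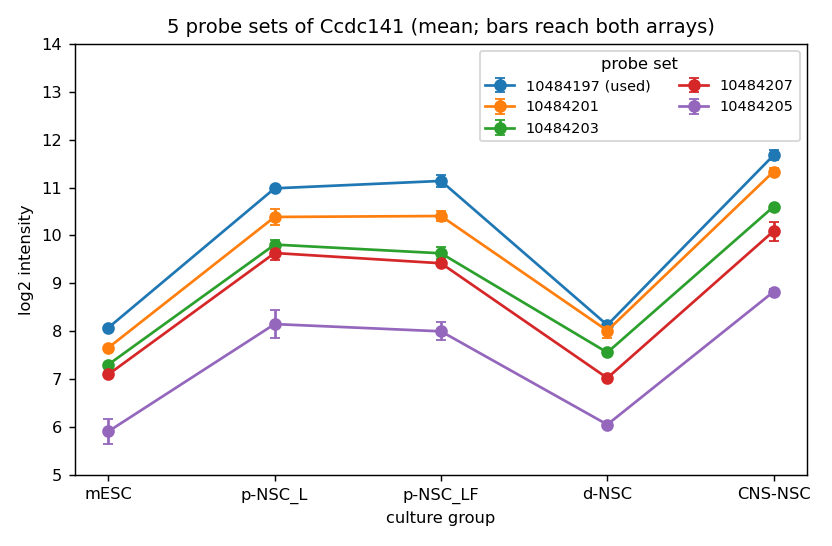
Log2 intensity (y axis) of the 5 probe sets of Ccdc141 in the 5 culture groups (x axis). Points are means of 2 arrays and bars reach both arrays. In each probe set mESC and d-NSC are low and the other 3 groups high, with d-NSC minus p-NSC_LF between -3.01 and -1.95.

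Crtac1, on chromosome 19, was high only in primitive cultures among the 5 groups. It read 8.06 and 8.02 in mESC, 10.40 and 10.65 in p-NSC_L, 10.15 and 10.29 in p-NSC_LF, 7.39 and 7.75 in d-NSC, and 7.60 and 6.95 in CNS-NSC. The 4 primitive arrays lay at least 2.09 above the rest. Relative to mESC it stood at 2.49 ± 0.20 in p-NSC_L, 2.18 in p-NSC_LF, -0.47 in d-NSC and -0.76 in CNS-NSC. The 2 lowest groups, d-NSC and CNS-NSC, overlapped.

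Klk1b22, on chromosome 7, had a profile close to that of Crtac1. It read 6.10 and 6.05 in mESC, 8.19 and 8.28 in p-NSC_L, 8.58 and 8.75 in p-NSC_LF, 6.78 and 6.84 in d-NSC, and 5.90 and 5.88 in CNS-NSC. No 2 groups overlapped, both primitive groups lay at least 1.34 above the rest, and the order of means from the top was p-NSC_LF, p-NSC_L, d-NSC, mESC and CNS-NSC. The difference from mESC was 2.15 ± 0.10 in p-NSC_L, 2.59 in p-NSC_LF and 0.73 in d-NSC. Both low groups are under the lower quartile of probe sets, so these sizes are uncertain. With each gene centred on its own mean over the 10 arrays, Crtac1 and Klk1b22 differed by a root mean square of 0.55 on the log2 scale, the smallest of the 15 pairs among the 6 genes, and Mid1 and Crtac1 by 2.81, the largest.

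Copz2, on chromosome 11, was highest in the primary spheres and lower at each later stage of the R1 line. It read 8.90 and 8.98 in mESC, 11.37 and 10.95 in p-NSC_L, 10.11 and 10.01 in p-NSC_LF, 9.49 and 9.55 in d-NSC, and 9.33 and 9.15 in CNS-NSC. No 2 groups overlapped. It stood at 2.22 ± 0.14 from mESC in p-NSC_L, a value that was 2.01 without p-NSC_L replicate 1 and 2.43 without replicate 2. The later R1 groups stood at 1.12 in p-NSC_LF and 0.57 in d-NSC, and CNS-NSC at 0.29. For p-NSC_LF minus p-NSC_L the difference was -1.10 ± 0.14. By group mean, feeder fibroblast markers moved with Copz2 over the first 3 groups. In p-NSC_L 4 of 13 were higher and 1 lower than in mESC, with a median difference of 0.30. Of all genes 6.56% were higher and 6.79% lower there. Between the 2 p-NSC_L arrays the markers ran opposite to Copz2, with means of 7.78 and 7.92. Group means of primitive and visceral endoderm markers moved with Copz2 too, with 6 of 13 higher and 1 lower in p-NSC_L and a median of 0.50. Their array means were 7.49 and 7.55 in mESC, 8.02 and 7.94 in p-NSC_L, and 7.67 and 7.68 in p-NSC_LF. Ccdc141, Crtac1, Ebf1 and Klk1b22 were also higher in p-NSC_L than in mESC. In d-NSC both marker lists were at their highest and Copz2 was lower than in both primitive groups. Medium and passage differ there too, and the part of either cell type in the Copz2 values was not tested in any group.

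Ebf1, also on chromosome 11, was low in mESC alone. It read 7.88 and 8.03 in mESC, 10.16 and 10.11 in p-NSC_L, 9.79 and 10.00 in p-NSC_LF, 10.74 and 10.63 in d-NSC, and 9.83 and 10.60 in CNS-NSC. The mESC arrays lay at least 1.76 below all others. Ebf1 stood 2.18 ± 0.21 above mESC in p-NSC_L, 1.94 in p-NSC_LF, 2.73 in d-NSC and 2.26 in CNS-NSC. The d-NSC group had the highest level, CNS-NSC overlapped both primitive groups, and p-NSC_L lay above p-NSC_LF without overlap. Only in mESC did Hprt, a purine salvage enzyme, read low too, at 6.99 and 6.76 against 10.45 to 11.60 on the 8 other arrays. Whether what sets the mESC arrays apart at Hprt has a part in the values of the 6 genes against mESC was not tested.

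**Figure D2:**
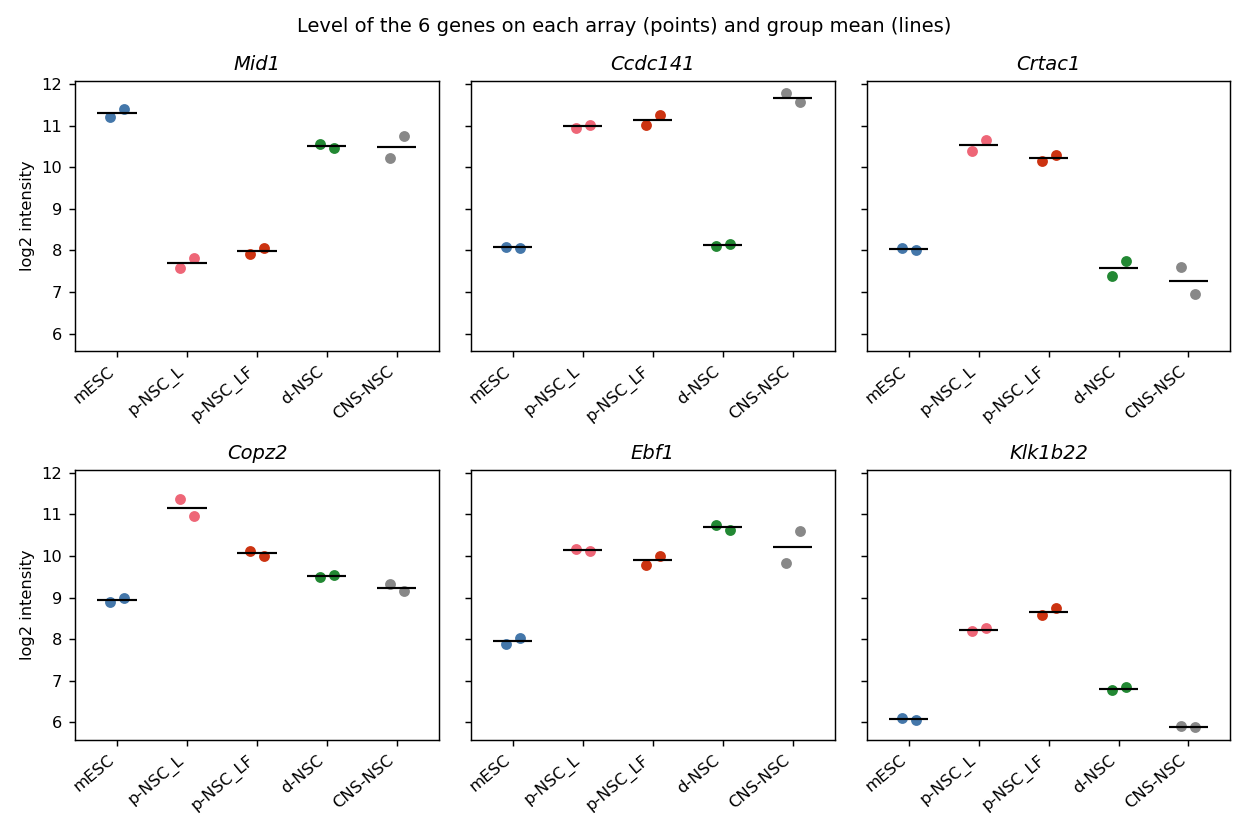
Log2 intensity (y axis) of the 6 genes on each of the 10 arrays, by culture group (x axis). Points are arrays and black lines group means of 2. Mid1 is low in both primitive groups, Crtac1 and Klk1b22 are high there, Ccdc141 is also high in CNS-NSC, Copz2 is highest in p-NSC_L, and Ebf1 is low in mESC alone.

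As a description, the name primitive-stage genes covers Mid1, Crtac1 and Klk1b22, whose levels in both primitive groups lay apart from all 3 other groups. Copz2 did so too, but with p-NSC_LF only 0.46 above the nearest d-NSC array. Ccdc141 was as high in CNS-NSC as in primitive cells or higher, and Ebf1 was no lower in d-NSC than in primitive cells. The distance of p-NSC_L from mESC follows from the choice of genes. The comparisons of p-NSC_LF with d-NSC and CNS-NSC, given below, use neither of those means, but p-NSC_LF came from the p-NSC_L spheres.

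The comparison of d-NSC with p-NSC_LF asked what happens when primitive cells pass into EGF and FGF without Lif. Neither mean compared comes from the mESC or p-NSC_L arrays, which enter only the estimate of spread, so the 6 genes could be tested in it. Mid1 rose by 2.53 ± 0.17, or 5.78-fold (adjusted p = 1.6e-06 by limma). Ccdc141 fell, with a difference of -3.01 ± 0.12 (adjusted p = 6.1e-08), as did Crtac1 at -2.65 ± 0.20 (adjusted p = 3.6e-06) and Klk1b22 at -1.85 ± 0.10 (adjusted p = 4.6e-07). Fold sizes were 8.06 for Ccdc141, 6.28 for Crtac1 and 3.62 for Klk1b22. For these 4 genes d-NSC lay on the side of mESC. Copz2 fell less, by 0.54 ± 0.14 (adjusted p = 0.011), and Ebf1 rose by 0.79 ± 0.21 (adjusted p = 0.012), away from mESC. Both arrays of d-NSC lay outside both of p-NSC_LF for each of the 6 genes. The share of all genes for which this holds was not counted, so it is a description only. In all, 2 rose and 4 fell, against 38.6% of all genes called in either direction, and the median over the 6 was -1.20 beside -0.01 over all genes. But the 6 genes were chosen for extreme levels in p-NSC_L, and p-NSC_LF came from those spheres. Between these 2 groups 1.78% of all genes were called. So neither the count nor the median of the 6 can be read against that of all genes. The sizes of Ccdc141 and Crtac1 ranked 31 and 70 among the falls of all genes, and that of Mid1 214 among the rises. The calls of Copz2 and Ebf1 were lost without p-NSC_LF replicate 1 (-0.49, adjusted p = 0.077, and 0.69, adjusted p = 0.084) and without d-NSC replicate 1 (-0.51, adjusted p = 0.071, and 0.73, adjusted p = 0.076).

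The comparison of d-NSC with CNS-NSC set cells made from ES cells beside cells taken from the embryo and also grown in culture. Ccdc141 was lower in d-NSC, at -3.55 ± 0.12, an 11.7-fold difference (adjusted p = 1.8e-08 by limma), with d-NSC at 8.11 and 8.15 and CNS-NSC at 11.78 and 11.57. Klk1b22 was higher in d-NSC by 0.92 ± 0.10 (adjusted p = 6.3e-05), from a CNS-NSC level under the lower quartile. Mid1 differed by 0.02 ± 0.17 (adjusted p = 0.94), Copz2 by 0.28 ± 0.14 (adjusted p = 0.16), Crtac1 by 0.30 ± 0.20 (adjusted p = 0.31) and Ebf1 by 0.47 ± 0.21 (adjusted p = 0.11). So 1 rose, 1 fell and 4 did not pass, against 34.0% of all genes called. Ebf1 passed without CNS-NSC replicate 2 (0.86, adjusted p = 0.0012), and Crtac1 without CNS-NSC replicate 1 (0.62, adjusted p = 0.022), so a single array decided each. Mid1 is X-linked, and Xist, the RNA of the inactive X, read 12.75 and 12.03 in CNS-NSC against 5.96 to 6.97 on the 8 other arrays. Its part in the Mid1 values against CNS-NSC was not tested.

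Between p-NSC_LF and CNS-NSC, 3 of the 6 genes were higher, 2 lower and 1 not called, against 41.9% of all genes called. Crtac1 was higher in p-NSC_LF by 2.95 ± 0.20 (7.70-fold, adjusted p = 9.2e-07 by limma) and Klk1b22 by 2.77 ± 0.10 (adjusted p = 1.3e-08). Copz2 was higher by 0.82 ± 0.14 (adjusted p = 7.8e-04). Mid1 was lower in p-NSC_LF, at -2.51 ± 0.17 (adjusted p = 9.3e-07). Ccdc141, high in both, differed by -0.54 ± 0.12 (adjusted p = 0.0037). Ebf1 differed by -0.32 ± 0.21 (adjusted p = 0.27), but by -0.70 without CNS-NSC replicate 1 (adjusted p = 0.0027) and by 0.072 without replicate 2 (adjusted p = 0.74). This comparison shares arrays with both others. Its p-NSC_LF cells came from the p-NSC_L spheres on which the genes were chosen, so its count cannot be read against the share of all genes.

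**Figure D3:**
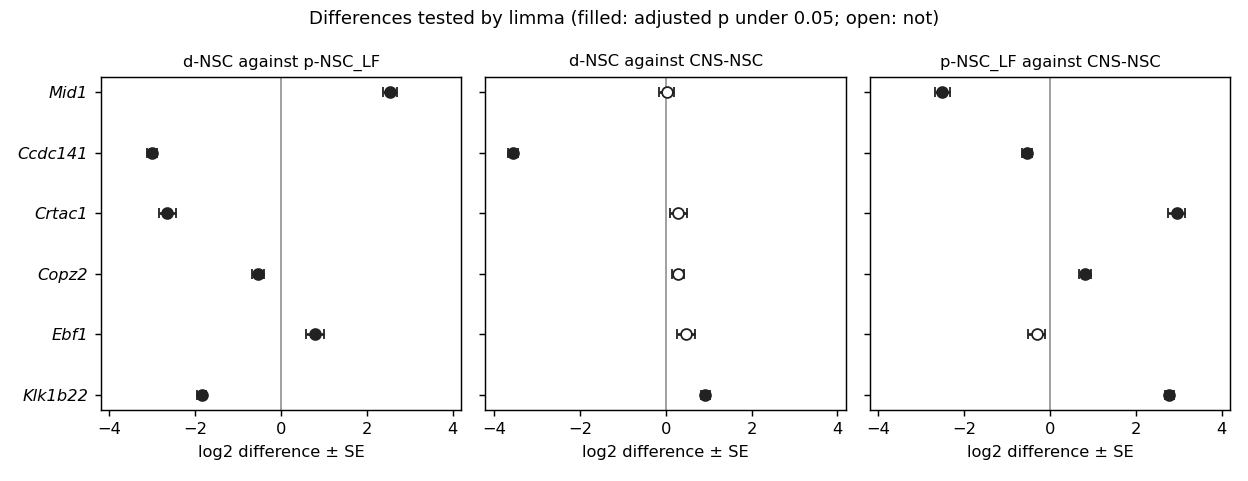
Log2 differences of the 6 genes (x axis, the group named first less the other, with standard errors of the limma fit to 2 arrays per group) in the 3 comparisons that did not enter the choice of genes. Filled points passed an adjusted p of 0.05 and open points did not. All 6 genes pass for d-NSC against p-NSC_LF, with Mid1 at 2.53 and Ccdc141 at -3.01.

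The nearest relatives of these genes followed other patterns. Mid2, the close homologue of Mid1 and also X-linked, read 6.14 and 5.75 in mESC, 6.36 and 6.29 in p-NSC_L, 6.21 and 6.25 in p-NSC_LF, 8.0 and 8.11 in d-NSC, and 10.58 and 11.46 in CNS-NSC. It was not called between p-NSC_L and mESC (0.38 ± 0.24, adjusted p = 0.36), where its levels lay under the lower quartile. Mid2 rose in d-NSC against p-NSC_LF by 1.82 ± 0.24 (adjusted p = 1.6e-04), as Mid1 did, but stood at -2.97 ± 0.24 in d-NSC against CNS-NSC (adjusted p = 6.3e-06).

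Of the other EBF genes, Ebf2 lay between 6.03 and 6.31 on 8 arrays, under the lower quartile of probe sets, and at 9.07 and 8.95 in d-NSC, a rise of 2.74 ± 0.10 over p-NSC_LF (adjusted p = 5.5e-08 by limma). Ebf3 read 10.02 and 9.84 in d-NSC and 9.84 and 9.68 in CNS-NSC, against 7.07 to 7.38 on the 6 arrays of mESC and primitive cells, and rose in d-NSC by 2.68 ± 0.13 (adjusted p = 1.7e-07). Ebf4 rose there by 0.76 ± 0.16 (adjusted p = 0.0038). Against mESC, p-NSC_L differed by 0.07 ± 0.10 at Ebf2 (adjusted p = 0.74), 0.12 ± 0.13 at Ebf3 (adjusted p = 0.61) and 0.54 ± 0.16 at Ebf4 (adjusted p = 0.054). The Ebf4 value passed after quantile normalization (adjusted p = 0.036), without the dimmest 30% of genes (adjusted p = 0.042) and with a replicate block (adjusted p = 0.044). Both primitive groups thus had high Ebf1 while Ebf2 and Ebf3 read near their mESC levels.

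**Figure D4:**
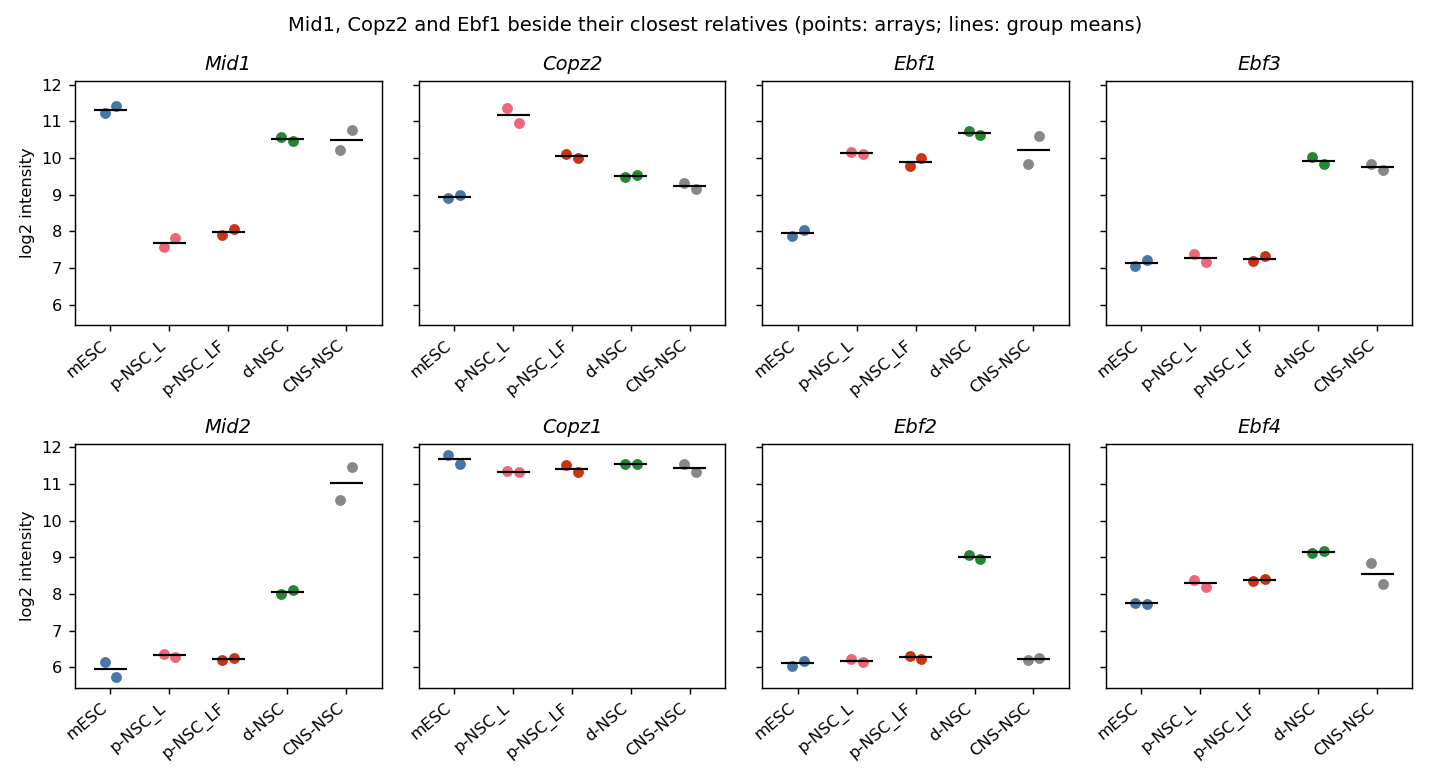
Log2 intensity (y axis) of Mid1, Copz2 and Ebf1 and of their closest relatives on each array, by culture group (x axis). Points are arrays and lines group means of 2, and levels are not comparable between genes. Mid2, Ebf2 and Ebf3 are low in both primitive groups, and Copz1 stays between 11.33 and 11.80.

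Copz1, which encodes the common zeta subunit of the coat, lay between 11.33 and 11.80 on all 10 arrays. It differed by -0.34 ± 0.12 between p-NSC_L and mESC (adjusted p = 0.11 by limma) and by 0.13 ± 0.12 between d-NSC and p-NSC_LF (adjusted p = 0.48). The span of Copz2 holds the microRNA gene Mir152, and that of Copz1 holds Mir148b. The 3 mature microRNAs of this family, listed by RefSeq for GRCm38.p6, are shown because they share the seed (bases 2 to 8, in capitals) by which microRNAs find their targets.
mmu-miR-152-3p (chr11:96850439-96850459, + strand): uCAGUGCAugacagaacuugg
mmu-miR-148a-3p (chr6:51269829-51269850, - strand): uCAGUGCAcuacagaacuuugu
mmu-miR-148b-3p (chr15:103285185-103285206, + strand): uCAGUGCAucacagaacuuugu

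The Mir152 probe set stayed within a narrow range. It read 7.36 and 7.45 in mESC, 7.49 and 7.40 in p-NSC_L, 7.27 and 7.19 in p-NSC_LF, 7.53 and 7.64 in d-NSC, and 7.27 and 7.33 in CNS-NSC, all within 0.45. Between p-NSC_L and mESC it differed by 0.04 ± 0.10 (adjusted p = 0.85 by limma). It rose by 0.36 ± 0.10 in d-NSC against p-NSC_LF (adjusted p = 0.017), opposite to Copz2, but this call was lost without p-NSC_LF replicate 1, p-NSC_LF replicate 2 or d-NSC replicate 2 (adjusted p = 0.057, 0.12 and 0.13). The probe set carries the gene's name, and no label says which form of the microRNA it reads.

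Klk1b22 has many near-identical neighbours on chromosome 7, and probes could read more than one of them. The 8 other Klk1b genes with a probe set of their own differed by -0.62 to 0.48 between p-NSC_L and mESC and by -0.39 to 0.21 between d-NSC and p-NSC_LF. In p-NSC_L only Klk1b5 at 7.18 and Klk1b9 at 6.78 averaged above the lower quartile of probe sets. The rest ranged from 3.84 for Klk1b16 to 6.10 for Klk1b24, where small or absent changes are hard to read. In p-NSC_L against mESC 1 of the 8 rose, Klk1b1 by 0.48 ± 0.13 (adjusted p = 0.035 by limma), a call lost without any 1 of the 4 arrays (adjusted p up to 0.19). Klk1b9 was the 1 that fell in d-NSC against p-NSC_LF, at -0.39 ± 0.12 (adjusted p = 0.026), lost without either p-NSC_LF array or d-NSC replicate 2 (adjusted p up to 0.20). Over the list of kallikreins with Egf, with 21 of 26 measured, 1 rose and 1 fell in p-NSC_L, beside 13.4% of all genes called, and the median difference was -0.02 beside 0.02 over all genes. In d-NSC 5 fell and none rose against p-NSC_LF, where 19.3% of all genes fell, and 3 of the 5 falls were kept without each array in turn. Among them were Klk13 at -1.01 ± 0.14 and Klk8, neuropsin, at -0.65 ± 0.11, and the list's median was -0.12 beside -0.01. Klk8 and Klk13 were also higher in p-NSC_LF than in CNS-NSC, by 1.12 ± 0.11 and 0.93 ± 0.14.

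Among partners and relatives of MID1, with 17 measured, 3 fell and none rose in p-NSC_L against mESC, where 13.4% of all genes were called. The largest falls, of Trim36 at -0.52 ± 0.15 and the phosphatase scaffold Ppp2r1b at -0.51 ± 0.12, were lost without single arrays (adjusted p up to 0.21). In d-NSC against p-NSC_LF 9 rose and 1 fell, with a median of 0.50 beside -0.01 for all genes, of which 19.3% rose and 19.3% fell. Gli3, a transcription factor of hedgehog signalling that MID1 is known to act on, rose by 2.45 ± 0.17. Igbp1, which encodes the alpha4 adaptor, fell, at -1.32 ± 0.11, opposite to Mid1. Of these 10 calls 8 were kept without each array in turn. Against CNS-NSC, 2 were higher and 9 lower in p-NSC_LF, where 21.3% of all genes were higher and 20.6% lower, with the brain ubiquitin ligase Trim9 at -3.08 ± 0.29. Both higher calls but only 4 of the 9 lower ones were kept without each array in turn.

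Of 18 genes of radial migration and CCDC141 partners, 9 rose and 2 fell in d-NSC against p-NSC_LF, where 19.3% of all genes rose and 19.3% fell, with a median of 0.50. Neuron markers moved with them, since 8 of 9, Dcx among them, rose and 1 fell there, with a median of 1.62, and their part in the list's count was not tested. Dcx, doublecortin of migrating neurons, rose by 3.36 ± 0.55 and Vldlr, a reelin receptor, by 2.49 ± 0.16. The falls were of the non-muscle myosin Myh9 at -0.66 ± 0.12 and of Hdac6, a tubulin deacetylase that CAMDI binds, at -0.48 ± 0.10. In p-NSC_L against mESC 3 rose and 2 fell, beside 13.4% of all genes called, with Myh9 at 1.21 ± 0.12 and its relative Myh10 at -0.68 ± 0.10 the only 2 of these kept without each array in turn. In the comparison with CNS-NSC, where Ccdc141 was high in both groups, 2 genes were higher in p-NSC_LF and 11 lower. Of all genes 21.3% were higher and 20.6% lower there. Fez1 stood at -3.28 ± 0.14 and Hdac6 at 1.91 ± 0.10. In d-NSC, where Ccdc141 was low, 4 were higher and 6 lower than in CNS-NSC, beside 17.6% and 16.5% of all genes. Fez1 stood at -1.08 ± 0.14 and Hdac6 at 1.42 ± 0.10 in that comparison. Whether any of these differences go with Ccdc141 was not tested.

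Among 12 genes of the Nogo receptor pathway, on which CRTAC1 acts, 1 rose in p-NSC_L against mESC and none fell, beside 13.4% of all genes called. It was Ngfr, the p75 co-receptor, at 0.56 ± 0.12 (adjusted p = 0.016 by limma), a call lost without either mESC array or p-NSC_L replicate 1 (adjusted p up to 0.12). Ngfr fell in d-NSC against p-NSC_LF, at -1.34 ± 0.12, the direction of Crtac1, while Tnfrsf19, another co-receptor, rose by 2.12 ± 0.15 and the receptor homologue Rtn4rl1 by 0.98 ± 0.13. In all 3 rose and 2 fell there, near the share of all genes called, 38.6%, and 2 of the rises and 1 of the falls were kept without each array in turn. Ngfr was higher in p-NSC_LF than in CNS-NSC by 1.64 ± 0.12, again like Crtac1, and the myelin ligand Omg lower, at -2.77 ± 0.46.

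Of 20 measured genes of the COPI coat and its cycle, 1 rose and 1 fell in p-NSC_L against mESC, near the 13.4% of all genes called, the GTPase-activating Arfgap1 at 0.93 ± 0.12 and the small GTPase Arf3 at -0.59 ± 0.10, and the median was 0.01 beside 0.02 over all genes. In d-NSC against p-NSC_LF 3 rose and 3 fell, beside 38.6% of all genes called, with Arfgap2 at 1.17 ± 0.11 and Arf4 at 0.55 ± 0.10 higher, and Kdelr3, a retrieval receptor, at -1.55 ± 0.15 and the coat subunit Cope at -0.80 ± 0.11 lower. Kdelr3 was also higher in p-NSC_LF than in CNS-NSC, by 2.02 ± 0.15, and each COPI call named here was kept without each array in turn.

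Of 16 measured EBF family members, partners and B cell targets, none rose and 1 fell in p-NSC_L against mESC, beside 13.4% of all genes called. The fall was of the EBF-binding zinc finger gene Zfp423 at -0.51 ± 0.11, a call lost without either mESC array. The mean of 8 B and blood cell markers lay between 6.3 and 6.8 on all arrays, close to the lower quartile. In d-NSC against p-NSC_LF 7 rose and 1 fell, beside 19.3% of all genes in each direction, with a median of 0.15. The rises included Ebf2, Ebf3 and Ebf4, given above. Others were of Pax5, a factor of B cells and of the midbrain-hindbrain boundary, at 3.15 ± 0.11, and Zfp521 at 2.80 ± 0.21. The fall was of the B cell receptor chain Cd79b at -0.87 ± 0.13. Pax5 and Ebf2 were also higher in d-NSC than in CNS-NSC, by 3.24 ± 0.11 and 2.78 ± 0.10.

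In p-NSC_LF against p-NSC_L limma called 0 of the 104 measured genes on these 6 lists, 11 of which had an unadjusted p under 0.05. Of all genes 1.78% were called there, 1.10% as higher and 0.677% as lower. For the 6 genes themselves this step gave 0.30 ± 0.17 for Mid1, 0.15 ± 0.12 for Ccdc141, -0.31 ± 0.20 for Crtac1, -1.10 ± 0.14 for Copz2, -0.24 ± 0.21 for Ebf1 and 0.43 ± 0.10 for Klk1b22, with no test because p-NSC_L arrays were used to choose them. The sign of Ccdc141 turned with the mean of its 5 probe sets (-0.07).

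Up to 2 measured genes on each side of each gene, by order of start, gave 24 neighbours, with differences between -0.74 and 0.51 in p-NSC_L against mESC. Among them 4933400A11Rik and G530011O06Rik overlap the span of Mid1, and Mir152 that of Copz2, so these do not lie beside the gene. Of the 24, 2 rose and none fell there, beside 13.4% of all genes called. The 2 were Nfe2l1 beside Copz2 at 0.46 ± 0.10 and R3hcc1l beside Crtac1 at 0.37 ± 0.10. The first call was lost without mESC replicate 2 (0.41, adjusted p = 0.099) and the second without either mESC array or p-NSC_L replicate 1 (adjusted p up to 0.18). Hccs and Amelx, which lie next to Mid1, differed by -0.21 ± 0.11 (adjusted p = 0.27 by limma) and -0.01 ± 0.12 (adjusted p = 0.99). In d-NSC against p-NSC_LF 5 rose and 2 fell, beside 38.6% of all genes called. Sestd1 beside Ccdc141 stood at 0.51 ± 0.15 in p-NSC_L against mESC (adjusted p = 0.053, and 0.013 without p-NSC_L replicate 1). In d-NSC it rose by 0.85 ± 0.15, opposite to Ccdc141, and Nfe2l1 rose by 0.59 ± 0.10, opposite to Copz2.

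Promoter windows of 250 bases before each RefSeq start on GRCm38.p6 were read for all 6 genes, 10 windows in all. Those of Crtac1, Klk1b22 and Mid1 are printed because the first 2 had the most similar profiles of the 15 pairs and Mid1 the most different one from Crtac1, 5′ to 3′ on the strand of the gene and for the most upstream start listed.
Crtac1 (chr19:42431789-42432038, - strand): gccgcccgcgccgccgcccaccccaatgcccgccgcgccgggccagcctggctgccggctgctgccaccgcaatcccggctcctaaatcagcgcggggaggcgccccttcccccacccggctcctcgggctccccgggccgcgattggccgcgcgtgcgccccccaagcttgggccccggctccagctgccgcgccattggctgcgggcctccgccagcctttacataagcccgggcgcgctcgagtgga
Klk1b22 (chr7:44112423-44112672, + strand): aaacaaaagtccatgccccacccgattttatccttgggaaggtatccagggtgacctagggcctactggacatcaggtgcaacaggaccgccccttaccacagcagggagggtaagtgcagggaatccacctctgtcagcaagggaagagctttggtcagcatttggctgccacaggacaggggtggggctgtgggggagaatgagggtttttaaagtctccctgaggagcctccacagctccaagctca
Mid1 (chrX:169684949-169685198, + strand): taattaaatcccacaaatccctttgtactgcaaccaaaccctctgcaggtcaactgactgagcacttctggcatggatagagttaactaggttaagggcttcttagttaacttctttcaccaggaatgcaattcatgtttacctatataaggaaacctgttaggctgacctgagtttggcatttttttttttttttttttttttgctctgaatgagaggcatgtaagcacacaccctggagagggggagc
The windows were 77.6%, 56.0% and 40.8% G and C, beside a median of 52.4% over 32851 windows. The 2 genes with the most similar profiles thus differed in this respect. Each window was searched on both strands for TTCNNNGAA (STAT factors, downstream of Lif), TCCC, any 2 bases and GGGA (EBF factors) and ATGCAAAT (octamer factors). None of the 10 windows held any of them, so no base is in capitals and no 2 motifs overlapped. Of all windows 7.02% held the first, 0.779% the second and 1.60% the third, and a missing match says only that these letters are not there.

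The genes whose profiles were nearest to each of the 6 were found by the root mean square difference of centred log2 values over the 10 arrays. They were sought among 5031 genes whose group means spanned at least 1 and reached the median gene. Genes with names of Gm and a digit, LOC or an ending of Rik were left out. Nearest to Mid1 was Zic5, a zinc finger factor of neural development, at 0.62, with means of 11.02 in mESC, 8.58 in p-NSC_L, 8.25 in p-NSC_LF, 11.64 in d-NSC and 10.14 in CNS-NSC. Then came Baz1a, a chromatin remodelling subunit, at 0.69, and the X-linked Ammecr1 at 0.69. For Ccdc141 the nearest were Car8 at 0.64, the glutaredoxin Glrx at 0.84 and the glutaminyl cyclase Qpct at 0.89. Crtac1 had the noncoding Mexis at 0.38, Hoxc12 at 0.40 and Ly6g6e at 0.40.

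Nearest to Copz2 were the alcohol dehydrogenase Adh1 at 0.35, the presenilin Psen2 at 0.41 and the acyltransferase Gpat3 at 0.41. Ebf1 was followed by the annexin Anxa5 at 0.42, the zinc finger factor Glis3 at 0.43 and Srgap1, which acts downstream of Robo receptors, at 0.47. Klk1b22 had the closest matches of all, with Id4, which blocks helix-loop-helix factors, at 0.28, chromogranin A, Chga, at 0.30 and the actin-binding Ablim1 at 0.32. Id4 averaged 7.74 in mESC, 9.87 in p-NSC_L, 9.97 in p-NSC_LF, 8.72 in d-NSC and 7.76 in CNS-NSC. These rankings rest on all 10 arrays, those of the choice of genes included, and carry no test.

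**Figure D5:**
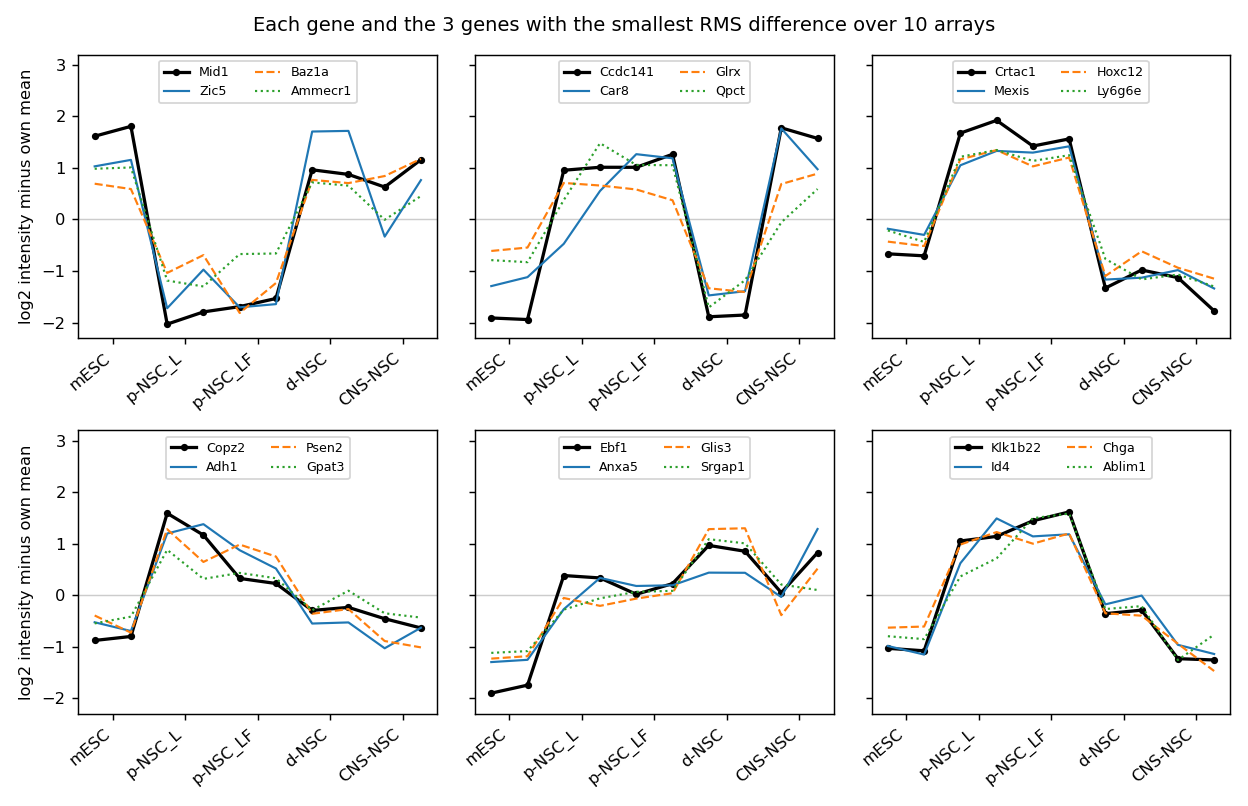
Log2 intensity minus the gene's own mean over the arrays (y axis) on 10 arrays in order of group and replicate (x axis, 2 arrays per group), for each of the 6 genes (black) and the 3 genes with the smallest root mean square difference from it. Lines only join arrays of 1 gene. By this measure, not scaled to the range of a gene, the match is closest for Klk1b22 (0.28 to 0.32) and loosest for Ccdc141 (0.64 to 0.89).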

How the data were processed

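RNA extracted with Trizol was labelled and hybridised to Affymetrix mouse gene arrays, per the labels' protocols. The authors deposited 1 table of log2 values, normalized by RMA in Partek per the submitters' processing notes. The log base was read from the range of the values, 2.07 to 14.7, since no label states it, and no label names a genome build. Of 35556 probe sets 21789 carried 1 gene symbol, 1621 several and 12146 none, by the platform annotation. The probe set with the highest mean stood for each of 19938 genes. Group means were estimated from the 10 arrays together by limma 3.58.1 (R 4.3.3) and compared with Benjamini-Hochberg adjustment over all genes at 0.05, so p-values measure only the spread between 2 replicates per group. On simulated data for d-NSC against p-NSC_LF over 19938 genes, 100 genes were changed by 1 and 100 by 2 (log2), with independent noise. Of these changes 83% and 99% were recovered, with 4.21% false calls. The real comparison called 38.6% of all genes, a far larger part, so these rates need not hold there.

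The 6 genes and all lists were chosen with earlier results of these data known, and 1 gene of the kallikrein list is not reported here. Named were the 6 genes, their relatives, up to 2 called rises and 2 called falls of largest size per partner list and comparison, the 3 genes of most similar profile, up to 2 measured neighbours on each side, and marker genes with Hprt and Xist. Sequences came from RefSeq (GRCm38.p6). Alternatives were quantile normalization, another choice of probe set, a filter on dim genes, a prior with a trend, only the groups compared, a replicate block, and each array left out.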

Additional observations from a re-analysis of the deposited data

How the results depend on the processing

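Of 180 values of the 6 genes under alternatives in the 3 tested comparisons, 169 kept direction and side of the threshold, and of 120 in the other 2, which have no test, 119 kept direction. The filter on dim genes, the prior with a trend, the fit of only the groups compared and the replicate block cannot change a difference. The mean of all probe sets changes only that of Ccdc141. For such values a kept direction was fixed in advance, so these tallies say little about direction. Fitting only the groups compared gave 1480 genes called in p-NSC_L against mESC and 99 in p-NSC_LF against p-NSC_L, where fewer arrays estimate the spread. Leaving out single arrays gave 1102 (without mESC replicate 1) to 3290 and 48 (without p-NSC_LF replicate 1) to 826 (without p-NSC_L replicate 2). The mean of all probe sets turned Ccdc141 to -0.075 in p-NSC_LF against p-NSC_L, and quantile normalization turned Copz1 to 0.0038 in p-NSC_LF against CNS-NSC. With single arrays left out, d-NSC against p-NSC_LF ran from -0.59 to -0.49 for Copz2 and from 0.69 to 0.89 for Ebf1. For d-NSC against CNS-NSC the range was -0.24 to 0.29 for Mid1, -0.028 to 0.62 for Crtac1 and 0.085 to 0.86 for Ebf1. For p-NSC_LF against CNS-NSC it was -0.70 to 0.072 for Ebf1 and -0.12 to 0.084 for Copz1. For p-NSC_L against mESC it was -0.0040 to 0.091 for Mir152, -0.0024 to 0.15 for Ebf2 and -0.062 to 0.050 for Amelx. The cause was not tested. Same-numbered replicates correlated from -0.107 to 0.375 in their deviations. This was over 0.1 in 6 of 10 pairs of groups and lower in the 4 with d-NSC. As no label pairs them, they were treated as unpaired. A replicate block gave 2958, 407, 7943, 7108 and 8595 calls for p-NSC_L against mESC, p-NSC_LF against p-NSC_L, d-NSC against p-NSC_LF, d-NSC against CNS-NSC and p-NSC_LF against CNS-NSC, and 6, 2 and 5 of the 6 genes in the last 3. With 2 arrays per group, and levels near the lower quartile for Klk1b22, small differences could not be resolved.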
